A study of Solanum tuberosum with 8 samples.

Results

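Of the 42034 potato probes on the array, 91 were taken as probes for protein breakdown outside the proteasome. They are the probes that the study listed as differing between the transgenic line *Stpfld252* and the wild type (WT) under control conditions, that fell in the MapMan category of protein degradation, and whose category name did not contain the proteasome. The list they came from held 1672 probes. By category and described match, 6 of the 91 stood for ubiquitin and ubiquitin-binding proteins, 1 for a ubiquitin-conjugating enzyme (E2), 31 for ubiquitin ligases (E3, with 23 of the RING type and 8 of the F-box type), 3 for ubiquitin proteases, 1 for autophagy, 4 for AAA-type ATPases, 34 for proteases and peptidases, and 11 for protease inhibitors that the categories file with the proteases they block. The sequence match was not described for 16 members, and 26 were also listed under another category. The E3 counts follow the category alone. Of the RING probes, MICRO.16897.C1 matches a retrotransposon protein and SSBN003C01u.scf a gag-pol polyprotein. Of the F-box probes, MICRO.13440.C1 matches a glutaredoxin and MICRO.165.C21 a heat shock transcription factor, so these roles are uncertain. The 91 probes carry 83 contig numbers or names, 7 of which belong to more than 1 member. What a shared number means is not given in the sources used here: such probes may share a target and are not counted as separate evidence, but the number MICRO.165 belongs to a RING and an F-box member with unlike annotations.

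The study asked how an additional electron carrier in the chloroplast changes the response of potato to drought. Leaf RNA of *Solanum tuberosum* cv Solara was measured in 4 groups: WT and *Stpfld252* with continued watering (control), and WT and *Stpfld252* after 3 days without water (drought). The line *Stpfld252* carries the flavodoxin (Fld) gene of the cyanobacterium *Anabaena* PCC7119, with a transit peptide for import into chloroplasts, taken from pea ferredoxin-NADP+ reductase, and driven by the constitutive cauliflower mosaic virus 35S promoter. It is a single transformed line, so what belongs to Fld and what belongs to this insertion cannot be told apart. Plants were grown from tuber slices for 4 weeks, and young expanded leaves of node 5 from 10 plants of each genotype and treatment were pooled. Each group has 2 arrays from pools of independent experiments, and p-values measure the spread between these pools.

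Ubiquitin is a small protein that a cascade of activating (E1), conjugating (E2) and ligating (E3) enzymes attaches to other proteins. The E3 ligase recognises the target, RING-type ligases pass ubiquitin on directly from the E2, F-box proteins bring targets to a larger ligase complex, and ubiquitin proteases take the tag off again. Tagged proteins are degraded by the proteasome or, in bulk, through autophagy, whereas proteases of the vacuole, the chloroplast and the cell wall cleave proteins without a tag. In Solanaceae, leaves and tubers hold abundant protein inhibitors of serine and cysteine proteases, many of which are known for their induction by wounding.

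All 8 arrays gave comparable signals. Between 85 and 91 of the 91 members were well above background on each array, 82 were so on all arrays, 7 were not on either array of at least 1 group, and none was saturated or carried an outlier flag. The SD between replicate arrays was 0.094 to 0.163 over the members, on the log2 scale used throughout, and no member differed over 2-fold between the replicates of a group. The drought arrays were all on slide 1 and the control arrays all on slide 2, so drought and slide cannot be told apart, and genotype went with the place on the slide, since on each of them *Stpfld252* filled positions 1 and 2. Of 35 probes for chlorophyll a/b-binding proteins, markers of green leaves, 32 were well above background on all arrays. These 35 were taken from the study's lists of probes that it had already called on these arrays. All 35 fell under drought in WT (median change -1.63), which follows in part from that choice. In *Stpfld252* 17 fell, against 7.76% of all probes tested, and 26 were higher in stressed *Stpfld252* than in stressed WT, against 5.9%. Their part in the members' values was not tested. In such bulk samples, fewer cells of a type and less RNA per cell cannot be told apart.

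Under control conditions, the comparison that chose the members, 68 were higher and 23 were lower in *Stpfld252* than in WT, against 3.78% and 2% of the 36250 probes tested. All 91 passed an adjusted p under 0.05 and a 2-fold change here, against 5.78% of all probes, which follows from how they were chosen. The split ran along the role classes. All 6 ubiquitin probes, the E2 probe, all 3 ubiquitin protease probes, 32 of 34 protease probes and all 11 inhibitor probes were higher, whereas 21 of 31 E3 probes were lower. Only 2 of the 23 lower members were not E3 probes, a cysteine protease and a carrot extracellular dermal glycoprotein-like probe of the aspartate protease category. The smallest differences belonged to the carboxypeptidase MICRO.10275.C1 (log2 difference 1.01), the RING probe MICRO.16071.C1 (-1.03) and the RING-H2 probe MICRO.11854.C3 (-1.03), and values of probes of these categories just outside the limit were not analysed here. The largest belonged to bf_mxflxxxx_0019c08.t3m.scf, at 5.95. These values describe the choice and are not tested.

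**Figure D1:**
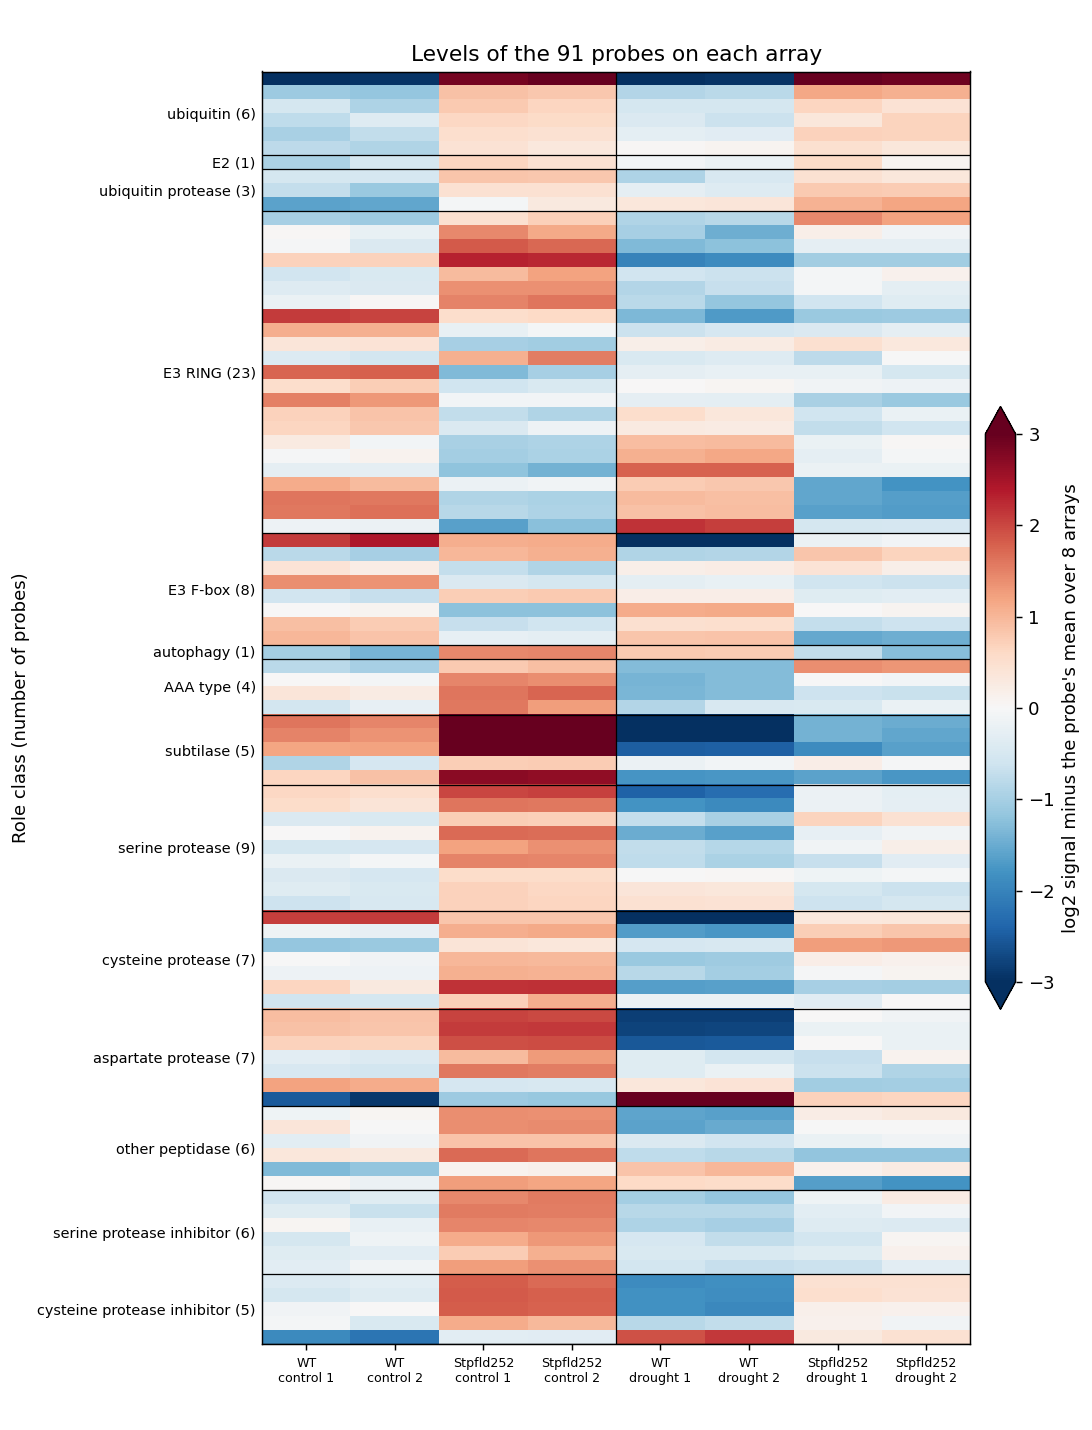
Log2 signal of the 91 probes (rows, grouped by role class and ordered within a class by the difference between the lines under drought) on the 8 arrays (columns), as the difference from the probe's own mean over all arrays, with colours ending at 3 on either side. Protease, subtilase and inhibitor rows are mostly red on the *Stpfld252* control arrays and blue on the WT drought arrays, whereas ubiquitin rows keep the same order of the lines in both treatments.

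The difference between the stressed lines took no part in the choice of members, so *Stpfld252* and WT can be tested against each other in stressed leaves. All arrays share a normalisation and an estimate of each probe's spread, so this test is not fully separate from that choice. Under drought, 33 members were higher and 16 were lower in *Stpfld252* (limma, adjusted p under 0.05 and over 2-fold), against 5.9% and 4.88% of all probes tested. Together they were 53.8% of the 91, against 10.8% of all probes. The share of called probes was 44.8% among the other 1581 probes of the same list. The median difference of the members was 0.51, compared with -0.03 over all probes. Of the 68 members higher in control leaves, 31 were higher under drought too, 5 were lower and 32 passed in neither direction. Of the 23 lower members, 11 stayed lower, 2 were higher and 10 passed in neither direction. Among the other probes of the list, 41.4% of the higher and 28.5% of the lower ones kept their call, against 45.6% and 47.8% of the members. A change between drought and control, in 1 line or set against that of the other line, includes the control arrays that chose the members. Such values are therefore descriptions: the p given within a line covers the spread between arrays and not that choice, and none is given for a difference between the responses.

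**Figure D2:**
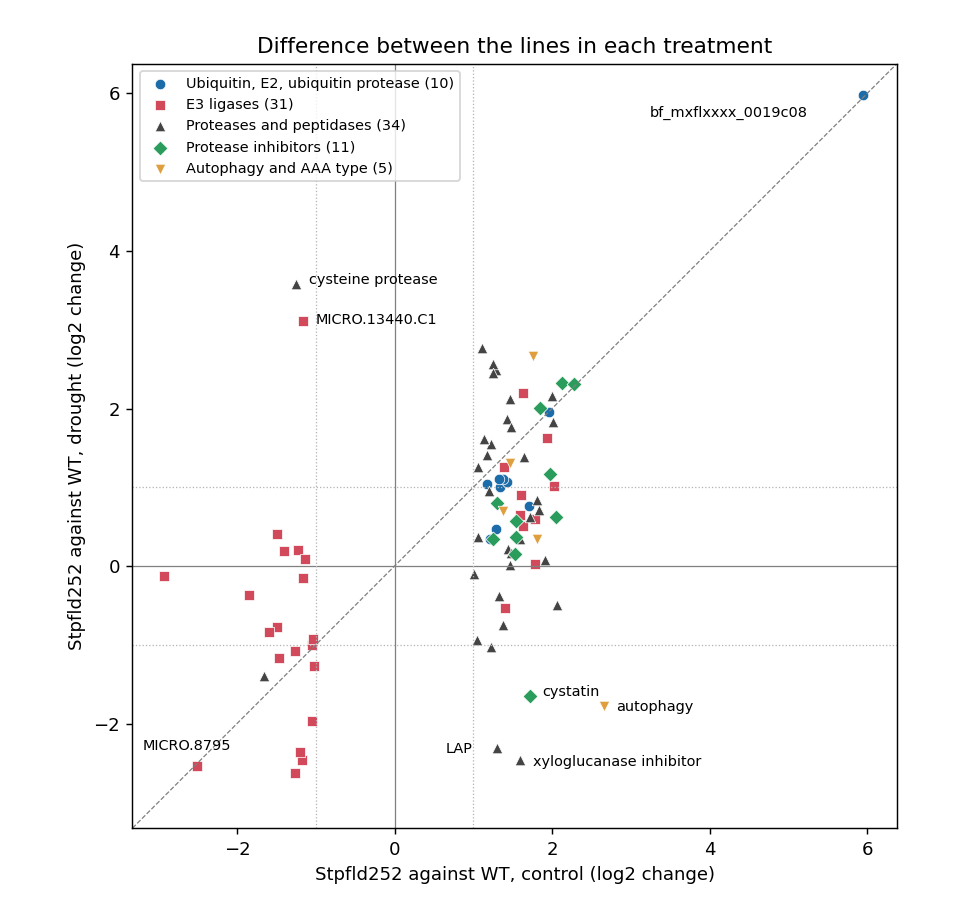
Log2 difference between *Stpfld252* and WT for each of the 91 probes under control conditions (horizontal axis, the comparison that chose them) and under drought (vertical axis), coloured by role, with dotted lines at a 2-fold change and a dashed line where both are equal. No probe lies within the vertical dotted lines, as the choice requires, and 7 called probes lie on opposite sides of 0 in the 2 treatments.

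Ubiquitin itself and the proteins filed with it were the 6 probes of the first class. Under drought 5 of them were higher in *Stpfld252* (median difference 1.05), and none was called between drought and control in either line. The probe with the widest gap, bf_mxflxxxx_0019c08.t3m.scf, had no described match. Its log2 signal was 4.69 and 4.80 on the WT control arrays, 10.60 and 10.79 on the *Stpfld252* control arrays, 4.72 and 4.79 in stressed WT and 10.81 and 10.65 in stressed *Stpfld252*. WT leaves were thus near the limit of detection in both treatments (1 WT control array was not well above background) and *Stpfld252* leaves far above it, with a difference under drought of 5.98 ± 0.0981 (SE, adjusted p = 2.5e-08). The probe MICRO.705.C6, also without a described match, had log2 signals of 10.41 and 10.48 in WT and 12.45 and 12.34 in *Stpfld252* under drought, 3.87-fold apart (adjusted p = 7.9e-07).

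Close to the 2-fold limit were MICRO.705.C5, which resembles a ubiquitin fusion-degradation protein (in yeast, UFD1 helps to extract tagged proteins for degradation), and a pair of probes similar to Arabidopsis At4g24690, which encodes NBR1, a receptor that carries ubiquitin-tagged cargo to autophagy. Under drought their differences were 1.00, 1.04 for bf_stolxxxx_0054e12.t3m.scf and 1.06 for MICRO.931.C2, with adjusted p of 5.3e-05, 0.00073 and 4e-04. Leaving out a single array ended each of these calls, with a difference of 0.98 for MICRO.705.C5 without *Stpfld252* drought replicate 1 or WT drought replicate 2, of 0.89 or 0.93 for bf_stolxxxx_0054e12.t3m.scf without *Stpfld252* drought replicate 2 or WT drought replicate 2, and of 0.95 for MICRO.931.C2 without *Stpfld252* drought replicate 1. Polyubiquitin MICRO.252.C1, which encodes ubiquitin as a chain of repeats, had log2 signals of 10.05 and 9.92 in control WT and 10.87 and 10.91 in stressed WT. In *Stpfld252* they were 11.26 and 11.14 with water, and their mean was 11.23 without. The WT arrays thus approached those of *Stpfld252* under drought without meeting them, and neither the difference of 0.34 between the stressed lines nor that of -0.87 between the responses reached 2-fold.

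The single E2 probe, bf_stolxxxx_0058a08.t3m.scf, similar to a ubiquitin-conjugating protein of the mangrove *Avicennia marina*, had log2 signals of 8.61 and 9.02 in control WT, 10.21 and 10.01 in control *Stpfld252*, 9.48 and 9.35 in stressed WT and 10.13 and 9.64 in stressed *Stpfld252*. The control groups did not overlap, and the stressed groups were apart only by the gap between 9.48 and 9.35 and 10.13 and 9.64. Under drought the difference was 0.47 ± 0.187 (SE, adjusted p = 0.063), and the drought changes of 0.59 in WT and -0.23 in *Stpfld252* were also not called. Ubiquitin proteases were higher in *Stpfld252* for 2 of 3 probes under drought. UBP6 (MICRO.1728.C2), a deubiquitinating enzyme that binds the proteasome, was 2.15-fold higher (adjusted p = 0.00027), with 10.61 and 11.04 in WT and 11.98 and 11.88 in *Stpfld252*, and its difference was 0.89 without WT drought replicate 1. ACDA00486A06.T3m.scf was 2.15-fold higher (adjusted p = 0.00024). MICRO.5345.C1 was induced by drought in WT by 1.93 (adjusted p = 3.1e-06) and changed by 0.99 in *Stpfld252*, just under the limit, after which the lines differed by 0.76, which was not called.

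**Figure D3:**
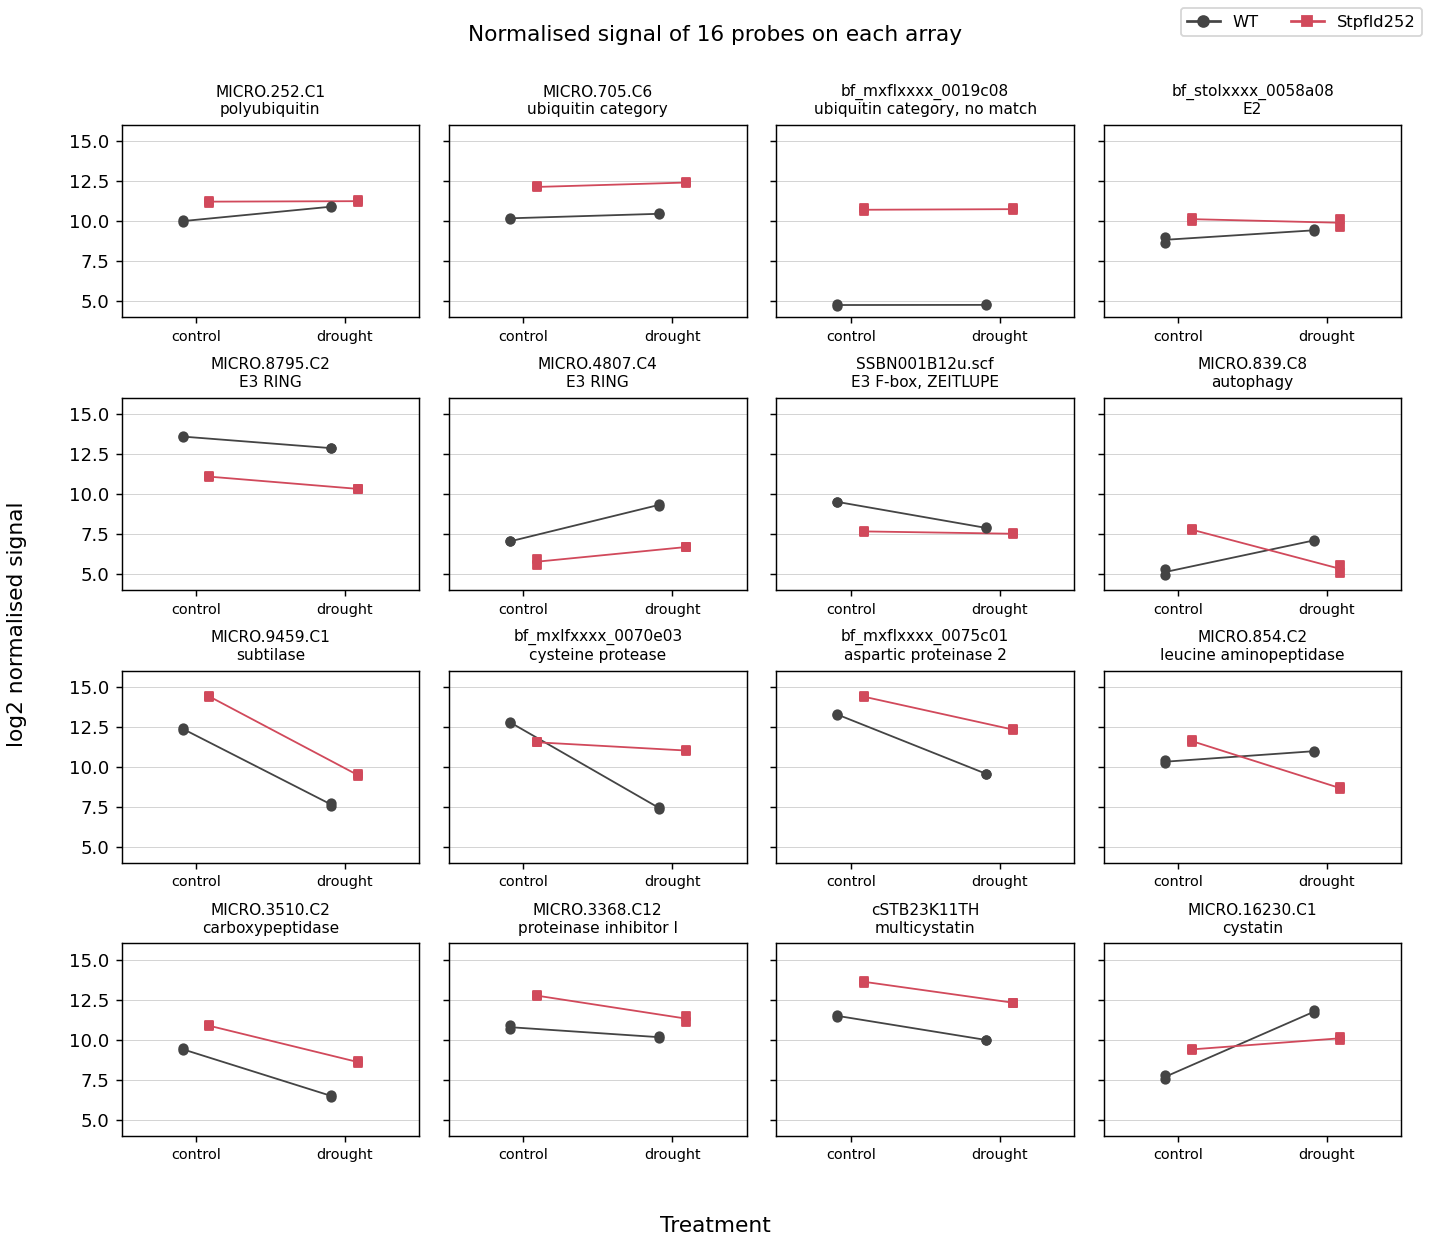
Log2 normalised signal of 16 probes (panels) on each array, in control and drought leaves, with circles for WT and squares for *Stpfld252* and lines joining the means of the 2 arrays of a group. Lines run flat and apart for MICRO.705.C6 and bf_mxflxxxx_0019c08, whereas for polyubiquitin MICRO.252.C1 the WT line rises towards that of *Stpfld252*. Lines fall in parallel for the subtilase and multicystatin, and cross for the autophagy, cysteine protease, leucine aminopeptidase and cystatin probes.

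Ligases moved both ways. Of the 31 E3 probes, 5 were higher and 10 were lower in *Stpfld252* under drought, with a median difference of -0.16. Among the 23 RING-type probes 3 were higher and 7 lower, and among the 8 F-box-type probes 2 were higher and 3 lower. MICRO.8795.C1 and MICRO.8795.C2, which share a contig number, were lower in both treatments. MICRO.8795.C2 had log2 signals of 13.54 and 13.61 in control WT, 11.11 and 11.03 in control *Stpfld252*, 12.83 and 12.87 in stressed WT and 10.33 and 10.28 in stressed *Stpfld252*. *Stpfld252* was thus lower on every array in both treatments, with a difference in stressed leaves of -2.54 ± 0.0754 (SE, adjusted p = 1.9e-07), and the drought changes of -0.72 and -0.76 were under 2-fold.

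Drought induced another RING pair with a shared contig number, MICRO.4807.C3 and MICRO.4807.C4, in WT. MICRO.4807.C3 also rose in *Stpfld252*, by 1.12, with a difference between the responses of -0.92. MICRO.4807.C4 rose in WT from 7.03 and 7.02 to 9.35 and 9.26, a change of 2.28 ± 0.12 (SE, adjusted p = 1.3e-06). In *Stpfld252* it went from 5.57 and 5.95 to 6.66 and 6.69, a change of 0.91 that stayed under 2-fold, and the responses differed by -1.36. All 4 stressed arrays were thus ordered by line, with *Stpfld252* 6.19-fold lower (adjusted p = 1.4e-06). MICRO.16071.C1 was also lower in stressed *Stpfld252* (-1.27, adjusted p = 2.3e-05), whereas the RING-H2 probe MICRO.11854.C3 differed by -0.93 and was not called.

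Drought lowered other RING probes in 1 or both lines. BF_CSCHXXXX_0015C06.T3M.SCF, with no described match, fell in WT from 9.88 and 9.92 to 7.86 and 7.91 and stood in *Stpfld252* at 6.81 and 7.13 with water and 7.91 and 7.60 without. Its stressed arrays overlapped between the lines, and the responses differed by 2.80 ± 0.188 (SE). MICRO.11618.C3, similar to a rice protein that interacts with a ubiquitin-conjugating enzyme, was repressed in both lines, with changes of -2.64 in WT (adjusted p = 5e-08) and -3.33 in *Stpfld252* (adjusted p = 5.7e-08). bf_suspxxxx_0051h08.t3m.scf was repressed at least 9.78-fold in WT and at least 3.17-fold in *Stpfld252*, lower bounds because it was not well above background on any stressed array, and the lines could not be compared there. bf_suspxxxx_0009g01.t3m.scf was 2.01-fold higher in stressed *Stpfld252* (adjusted p = 0.00036), at the limit of the call and at 0.97 without WT drought replicate 1.

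F-box probes included ZEITLUPE (SSBN001B12u.scf), a blue-light receptor of the circadian clock in Arabidopsis. Its log2 signal was 9.52 and 9.47 in control WT and between 7.48 and 7.90 on the other 6 arrays. WT thus fell by 1.63 ± 0.0772 (SE, adjusted p = 7.1e-07) under drought, to a mean of 7.87 against 7.51 in stressed *Stpfld252*, and the responses differed by 1.48. MICRO.4054.C11, similar to the kelch-repeat F-box gene At1g15670 of Arabidopsis, was lower in *Stpfld252* in both treatments, with a difference under drought of -1.16 (adjusted p = 1.5e-05), and had drought changes of -0.34 and -0.03 that were not called. MICRO.165.C21, which the descriptions match to an Arabidopsis heat shock transcription factor, rose in WT by 1.09 (adjusted p = 5.8e-06) and in *Stpfld252* by 1.28 (adjusted p = 3.9e-06), and remained 2.11-fold lower in *Stpfld252* (adjusted p = 1.2e-05). bf_mxlfxxxx_0011a10.t3m.scf was repressed in *Stpfld252*, where it changed by -1.23 (adjusted p = 7.8e-06), and was not called in WT. This change was under 2-fold with an offset of 50, median scaling, cyclic loess and the deposited values, at -0.64, -0.87, -0.97 and -0.95, whereas the difference between the stressed lines kept its call. It came to 5.11 and 5.18 in stressed *Stpfld252*, against 7.49 and 7.52 in stressed WT. bf_arrayxxx_0017e07.t7m.scf, similar to Arabidopsis At1g70590, was likewise repressed in *Stpfld252*, 2.14-fold (adjusted p = 9.6e-06), and its responses differed by -1.93.

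The F-box category also held MICRO.13440.C1, whose described match is glutaredoxin 1 of *Plantago major*, a small thiol oxidoreductase. It had log2 signals of 13.03 and 13.35 in control WT and 12.02 and 12.05 in control *Stpfld252*, against 7.72 and 7.67 in stressed WT and 10.77 and 10.85 in stressed *Stpfld252*. WT was the higher line with water and the lower one without. WT fell by 5.50 ± 0.109 (SE, adjusted p = 9e-09) and *Stpfld252* fell by 1.22 ± 0.109 (SE, adjusted p = 4.1e-05), a difference between the responses of 4.27.

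One probe was filed under autophagy, MICRO.839.C8, which matches a rice microtubule-binding protein and was also listed under trypsin inhibitors. Its log2 signal rose in WT from 5.29 and 4.93 to 7.10 and 7.07 under drought and fell in *Stpfld252* from 7.75 and 7.78 to 5.58 and 5.04. The order of the lines was thus opposite in the 2 treatments, without overlap in either. Its changes were 1.97 ± 0.179 in WT (SE, adjusted p = 3.2e-05) and -2.45 ± 0.179 in *Stpfld252* (SE, adjusted p = 1.4e-05). Of the 4 AAA-type probes, which stand for ATPases that unfold other proteins, 2 were higher in stressed *Stpfld252*. MICRO.14853.C1 stood at 9.38 and 9.36 in WT and 12.07 and 11.99 in *Stpfld252* (6.32-fold, adjusted p = 3.5e-07) and was not called in either drought comparison. MICRO.8044.C1, similar to a tobacco ATPase, and BF_TUBSXXXX_0022H06_T3M.SCF were repressed in both lines, with changes of -1.33 and -1.64 in WT (adjusted p = 2.2e-06 and 1.3e-06) and of -1.48 and -2.31 in *Stpfld252* (adjusted p = 2.1e-06 and 4.1e-07). MICRO.5078.C3, similar to the mitochondrial BCS1-type ATPase At3g50930 of Arabidopsis, was well above background on the control *Stpfld252* arrays alone, at 6.45 and 6.13, and fell there at least 3.36-fold (adjusted p = 8.2e-05).

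Proteases and peptidases were the largest set. Of these 34 probes, 15 were higher and 4 lower in stressed *Stpfld252*, with a median difference of 0.77. Subtilases, serine proteases that are mostly secreted to the cell wall, fell under drought, with 4 of 5 repressed in each line and medians of -3.66 in WT and -4.78 in *Stpfld252*. MICRO.9459.C1, similar to a tomato subtilisin-like protease, fell from 12.44 and 12.30 to 7.70 and 7.56 in WT and from 14.43 and 14.34 to 9.54 and 9.39 in *Stpfld252*. *Stpfld252* stood above WT on every array of both treatments, under drought 3.57-fold (adjusted p = 2.8e-06), and the responses differed by -0.18. BF_LBCHXXXX_0016G03_T3M.SCF, from another tomato subtilisin-like match, fell by 5.14 ± 0.0786 in WT and fell by 4.99 ± 0.0786 in *Stpfld252* (SE, adjusted p = 3.2e-09 and 2.6e-08) and was 4.46-fold higher in stressed *Stpfld252* (adjusted p = 4.8e-07). In stressed WT, MICRO.6325.C1 and cSTB33F2TH were not well above background and had fallen at least 12.6-fold and at least 5.11-fold (adjusted p = 3.9e-08 and 2.5e-07). bf_arrayxxx_0035d08.t7m.scf, the fifth subtilase, was not called in either drought comparison, and its responses differed by -1.23.

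Among the 9 other serine proteases, 4 were higher and 1 was lower in stressed *Stpfld252*. All 3 probes for wound-inducible carboxypeptidase, an enzyme described from tomato that removes C-terminal residues, were in the higher group. MICRO.3510.C2 fell in WT from 9.47 and 9.33 to 6.40 and 6.56 and in *Stpfld252* from 10.84 and 10.89 to 8.65 and 8.54. *Stpfld252* was the higher line on all arrays of both treatments, under drought by 2.11 ± 0.0916 (SE, adjusted p = 1.1e-06), and the corresponding differences were 1.38 for MICRO.3510.C1, with the same contig number, and 1.62 for POAB684TV. The carboxypeptidase type III probe MICRO.10275.C1 lost its gap under drought, with a difference of -0.10 that was not called. BF_TUBSXXXX_0021D05_T3M.SCF, without a described match, went up in WT by 1.01 (adjusted p = 1.5e-05) and changed in *Stpfld252* by -1.24 (adjusted p = 7.4e-06), the first of these at the limit of the call and at 0.94 without WT control replicate 1. MICRO.6951.C1 and bf_arrayxxx_0058a11.t7m.scf were repressed in *Stpfld252*, with changes of -1.24 and -1.98 (adjusted p = 6.7e-06 and 6.7e-06), and not called in WT. The first matches a putative membrane protein of Arabidopsis, and the second has no described match and was also listed under proteinase inhibitors, as was SSBT005M24x.scf of the same category, so their roles are uncertain.

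Of the 7 cysteine proteases, 4 were higher in stressed *Stpfld252* and none was lower. bf_mxlfxxxx_0070e03.t3m.scf, similar to a tomato cysteine protease, showed the largest difference of responses among all members. Its log2 signal was 12.75 and 12.79 in control WT and 7.48 and 7.39 in stressed WT, and 11.52 and 11.53 in control *Stpfld252*. The stressed *Stpfld252* arrays had a mean of 11.01. WT thus fell by 5.34 ± 0.0735 under drought (SE, adjusted p = 2.4e-09), whereas *Stpfld252* changed by -0.51 and ended 11.9-fold above WT (adjusted p = 5.1e-08). MICRO.13071.C1, which the descriptions match to the tomato ripening protein E4, a methionine sulfoxide reductase that repairs oxidised methionine, fell by 1.53 in WT (adjusted p = 1.2e-06) and changed in *Stpfld252* by -0.32, which was not called. The cathepsin B-like MICRO.7684.C2 differed by 0.96 in stressed leaves and was not called. MICRO.16578.C1 fell in both lines, with changes of -2.10 in WT and -3.19 in *Stpfld252* (adjusted p = 1.4e-06 and 3.1e-07), and bf_cswcxxxx_0005b11.t3m.scf fell by 1.07 in *Stpfld252* (adjusted p = 0.00046). That last call ended without *Stpfld252* drought replicate 1, at -0.89, and without *Stpfld252* control replicate 2, also at -0.89.

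Of the 7 aspartate proteases, 3 were higher and 2 were lower in stressed *Stpfld252*. The higher ones were the 3 probes that match aspartic proteinase 2 of soybean. bf_mxflxxxx_0075c01.t3m.scf fell in WT from 13.29 and 13.22 to 9.55 and 9.56, a change of -3.70 (adjusted p = 1.1e-08), and in *Stpfld252* from 14.39 and 14.34 to 12.37 and 12.26, a change of -2.05 (adjusted p = 4.5e-07). The stressed lines were 6.79-fold apart (adjusted p = 1.6e-07), and the responses differed by 1.65. MICRO.12692.C1 gave -3.61 in WT, -2.30 in *Stpfld252* and 2.56 between the stressed lines (adjusted p = 8.7e-09, 1.7e-07 and 1.4e-07). The lower ones included MICRO.9571.C2, described as a xyloglucanase inhibitor of potato, from a family with an aspartic protease fold that blocks microbial cell wall enzymes. It was not well above background in control WT and stood at 9.82 and 9.89 in stressed WT, at least 49.4-fold higher (adjusted p = 9.3e-09). In *Stpfld252* it rose from 5.62 and 5.58 to 7.41 and 7.36, by 1.79 ± 0.117 (SE, adjusted p = 7.6e-06), so that stressed *Stpfld252* was 5.52-fold below stressed WT (adjusted p = 1.7e-06). STMEH61TV, similar to an extracellular dermal glycoprotein-related protein of Arabidopsis, fell in *Stpfld252* at least 4.49-fold (adjusted p = 1.1e-06) and was not well above background there under drought.

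Among the remaining 6 peptidases, 2 were higher and 1 was lower in stressed *Stpfld252*. Leucine aminopeptidase (MICRO.854.C2), which removes N-terminal residues and is induced by wounding in tomato, stood at 10.42 and 10.20 in control WT and 10.99 and 10.94 in stressed WT, and at 11.65 and 11.56 in control *Stpfld252* and 8.73 and 8.58 in stressed *Stpfld252*. It was thus the highest in control *Stpfld252* and the lowest in stressed *Stpfld252*, with a change of -2.95 ± 0.0987 (SE, adjusted p = 2.5e-07) in *Stpfld252* and a change of 0.66 in WT that was not called. Aminopeptidase P (MICRO.17840.C1), which cleaves before proline, rose in WT by 2.18 ± 0.0912 (SE, adjusted p = 3.6e-07) and changed by 0.05 in *Stpfld252*, where it had been at the higher level with water. Metacaspase 1 (MICRO.9483.C1), a cysteine peptidase linked to the control of cell death in Arabidopsis, fell in both lines, with changes of -1.57 in WT and -1.12 in *Stpfld252* (adjusted p = 1.6e-06 and 1.7e-05), and was 3.66-fold higher in stressed *Stpfld252* (adjusted p = 1.4e-06). STMGX17TV was 2.92-fold higher (adjusted p = 2.6e-05), and the prolylcarboxypeptidase MICRO.5574.C1 fell by 1.12 in WT and fell by 2.83 in *Stpfld252* (adjusted p = 4.8e-06 and 8.7e-08).

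Protease inhibitors, all 11 of them higher in control *Stpfld252*, are given by type. The 3 multicystatin probes, which stand for a potato protein of several cystatin domains that blocks cysteine proteases, stayed higher in stressed *Stpfld252* by 2.01, 2.31 and 2.33 (adjusted p = 7.7e-07, 3.7e-07 and 3.5e-07). cSTB23K11TH had log2 signals of 11.43 and 11.53 in control WT, 13.66 and 13.55 in control *Stpfld252*, 9.95 and 10.00 in stressed WT and 12.31 and 12.30 in stressed *Stpfld252*. In all 3 probes both lines fell, and the responses of the 3 probes differed by 0.04 to 0.20. The cystatin MICRO.16230.C1, similar to one of apple, ran the other way. It rose in WT from 7.80 and 7.53 to 11.63 and 11.83, by 4.07 ± 0.116 (SE, adjusted p = 4.7e-08), and went from 9.40 and 9.37 to 10.00 and 10.16 in *Stpfld252*, by 0.70, which was not called. Stressed *Stpfld252* was thus 3.13-fold below stressed WT (adjusted p = 1.4e-05). The fifth cystatin probe, MICRO.2677.C2, differed by 0.80 and was not called.

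Proteinase inhibitor I, a wound-induced inhibitor of chymotrypsin-like proteases, was represented by 6 probes, 3 of them with 1 contig number. All 6 were repressed by drought in *Stpfld252*, with changes between -1.86 and -1.03, and none was called in WT, where the changes lay between -0.89 and -0.12. For MICRO.3368.C14, at -1.03, the call ended without *Stpfld252* drought replicate 1, at -0.78, and without *Stpfld252* control replicate 2, at -0.87. MICRO.3368.C12 had log2 signals of 10.67 and 10.88 in control WT and 10.22 and 10.08 in stressed WT, against 12.69 and 12.80 in control *Stpfld252*. The stressed *Stpfld252* arrays had a mean of 11.31. It was the only one still over 2-fold higher in stressed *Stpfld252* (1.16, adjusted p = 0.00023), and was at 0.97 without *Stpfld252* drought replicate 2. Over the 6 probes the responses differed by -1.43 to -0.81.

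Counted over all members, more probes fell than rose under drought in each line. In WT 10 members rose and 31 fell, 45.1% of the 91 against 18.2% of all probes tested (8.2% rose and 10% fell). In *Stpfld252* 5 rose and 49 fell, 59.3% against 13.4% of all probes (5.61% rose and 7.76% fell). Among the other 1581 probes of the study's list, 47.6% were called in WT (15.8% rose and 31.8% fell). In *Stpfld252* 49.8% of these were called (13% rose and 36.8% fell). The median changes of the members were -0.36 in WT and -1.04 in *Stpfld252*. They were 0.04 and 0.05 over all probes, and -0.30 and -0.41 over the other probes of the list. Proteases and peptidases accounted for 17 of the members that fell in WT and 23 of those that fell in *Stpfld252*, E3 probes for 9 and 12, and inhibitors for 3 and 10.

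The difference between the drought responses, which uses the same control arrays, passed the limits of a call above 0 for 13 members and below 0 for 29. Together these were 46.2%, against 11.8% of all probes (5.82% above and 5.97% below) and 52.9% of the other probes of the study's list. This difference of responses subtracts the very difference that chose the members, so these counts describe the choice as well. Of the 29, 26 came from the 68 members higher in control *Stpfld252*, and 9 of the 13 came from the 23 lower ones. By role, 8 E3 probes passed the limits in each direction, 5 proteases and peptidases had a response that was higher in *Stpfld252* and 15 one that was lower, and 4 inhibitors were lower. No probe of the ubiquitin, E2 and ubiquitin protease classes passed them. The most frequent course was that of 19 members, higher in control *Stpfld252*, repressed by drought in *Stpfld252* and called in no other pairwise comparison. Another 16 were higher in *Stpfld252* in both treatments and repressed in both lines, and 12 were higher in *Stpfld252* in both treatments with no drought call.

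**Figure D4:**
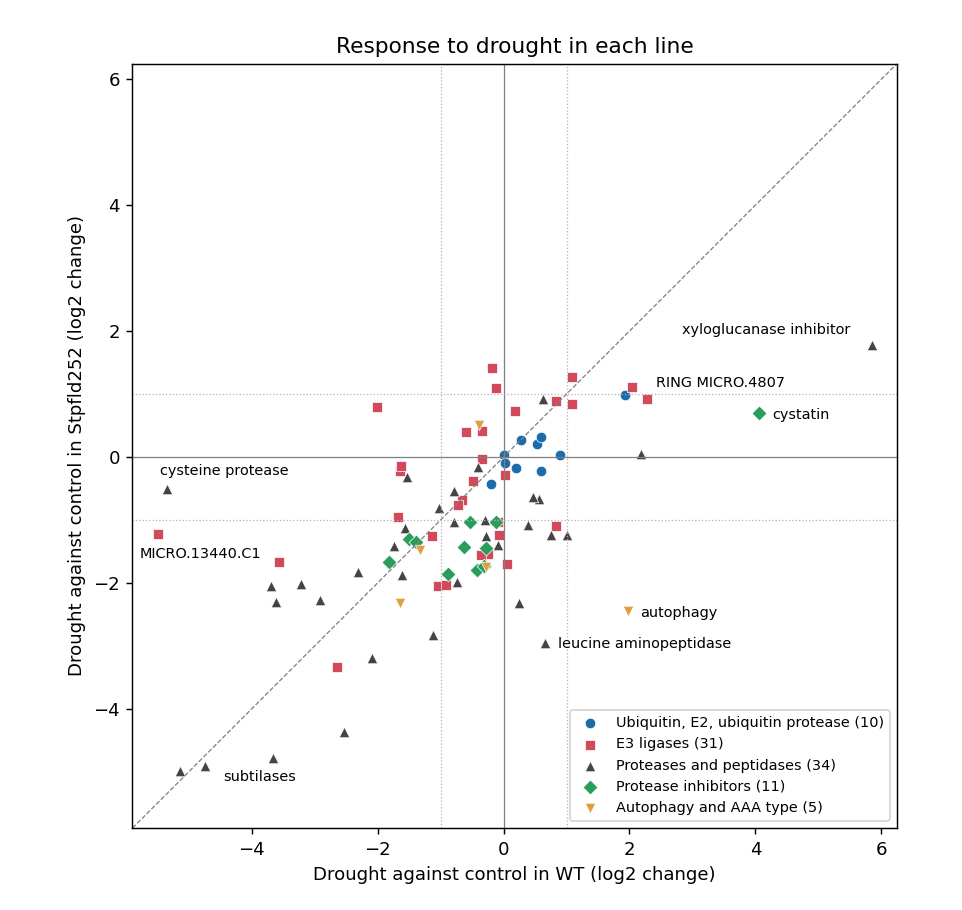
Log2 change of each of the 91 probes between drought and control in WT (horizontal axis) and *Stpfld252* (vertical axis), coloured by role, with dotted lines at a 2-fold change and a dashed line where the responses are equal. Ubiquitin probes lie near the centre, 4 subtilases at the lower left, and the autophagy probe at the lower right, where WT rose and *Stpfld252* fell.

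In 7 members the called difference between the lines had opposite directions in the 2 treatments. The cysteine protease bf_mxlfxxxx_0070e03.t3m.scf and the glutaredoxin-like MICRO.13440.C1 were lower in *Stpfld252* with water and higher under drought. The autophagy probe MICRO.839.C8, the cystatin MICRO.16230.C1, leucine aminopeptidase MICRO.854.C2, the xyloglucanase inhibitor MICRO.9571.C2 and the serine protease BF_TUBSXXXX_0021D05_T3M.SCF were higher with water and lower under drought, the last of them with a difference of -1.02, and of -0.98 without *Stpfld252* drought replicate 1.

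The array also holds 59 tested probes that share a contig number with a member but were not members, a set taken by name alone after the values of the members were known. Only 2 of them were on the study's list. Under drought 2 of the 59 were higher and 2 lower in *Stpfld252*, against 5.9% and 4.88% of all probes tested. Their median difference was 0.06, against -0.03 over all probes. Both relatives of the RING pair, MICRO.4807.C1 and MICRO.4807.C5, were lower in stressed *Stpfld252* like the pair itself, with differences of -2.49 and -2.36 (adjusted p = 2.5e-06 and 3.5e-07). MICRO.11618.C1 fell by 5.93 in WT and fell by 3.84 in *Stpfld252* (adjusted p = 3.2e-09 and 6.3e-08), and both members of that number also fell in both lines. The relatives of the ubiquitin probe MICRO.705.C6 were not called between the stressed lines: the differences of 4 probes of that contig number lay between -0.54 and 0.76. MICRO.854.C4, MICRO.9571.C3 and MICRO.252.C3 share the numbers of leucine aminopeptidase, the xyloglucanase inhibitor and polyubiquitin, and were called in no comparison. MICRO.854.C4 changed by -0.29 under drought in *Stpfld252* and MICRO.9571.C3 by 0.64 in WT, and MICRO.252.C3 differed by -0.10 between the control lines. Of 7 relatives of the autophagy probe, none was called between the stressed lines. MICRO.839.C6 and MICRO.839.C13, both on the study's list, were higher in control *Stpfld252* like the member (1.74 and 1.47). Drought repressed both in *Stpfld252*, with changes of -2.19 and -1.22, and neither was called in WT. The other relatives of this probe were not called between the control lines.

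Some probes outside the members were read as well, all from the study's lists of probes that it had already called on these arrays. The 58 proteasome probes of the same list were higher in stressed *Stpfld252* in 53 cases (median difference 1.55), against 5.9% of all probes tested. In *Stpfld252* none was called under drought, against 13.4% of all probes. All of the 28 further protease inhibitor probes on the list were higher in control *Stpfld252*. A fall from those same control arrays thus follows in part from the choice. By drought 25 were repressed in *Stpfld252* and none was induced, against 7.76% and 5.61% of all probes tested. In WT 2 were repressed and 5 induced, against 10% and 8.2%. In stressed *Stpfld252* 1 was higher and 4 were lower, against 5.9% and 4.88%. Of 17 wound and jasmonate genes of the study's tables, 9 fell and 1 rose in WT, against 10% and 8.2% of all probes tested. In *Stpfld252* 12 fell and none rose, against 7.76% and 5.61% of all probes. That these genes had already been called adds to such counts. Patatin, the storage protein of tubers, had all 7 of its listed probes higher in control *Stpfld252* and 6 of them higher in stressed *Stpfld252* (median difference 2.36). The median log2 signal was 7.24 and 7.32 on the control *Stpfld252* arrays and 4.40 and 4.42 on the stressed WT arrays. The latter were near the 95th percentile of the negative controls there (4.29 and 4.28), and only 1 of the 7 probes was well above background on all arrays. The part of tuber-type gene activity in the inhibitor values was not tested.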

How the data were processed

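Leaf RNA was hybridised to 8 one-colour Agilent POCI arrays of 60-base probes, 2 for each of 4 groups given by GEO's titles. The authors deposited, per array, the scanner software's output (Feature Extraction 11.5.1.1 per the file headers), from which the median spot and background intensity were used, intensities not normalised between arrays. They also deposited a table of log2 values, equal within 5e-14 to normexp correction with an offset of 16 and quantile normalisation, which served as an alternative.

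With limma 3.58.1 in R 4.3.3, intensities were corrected by normexp (offset 0), quantile normalised and taken to log2. Probes were kept when over 1.1 times the 95th percentile of 153 negative control spots on both arrays of a group, which left 36250 (86.2%). One model with 4 group means was fitted to all arrays. Calls needed a Benjamini-Hochberg adjusted p under 0.05 and a change over 2-fold, in a moderated test across all probes, and errors are limma's standard errors. The median signal was 3.43 to 4.19 times background, and the number of arrays limits the precision. A fold is given as "at least" where both arrays of 1 group failed the software's test against background, relative to the higher of the probe's own signal, the lowest detected signal and that percentile.

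Members and lists were chosen with earlier results of these data known, and the categories and descriptions are those of the study's supplementary list, whose value columns were not used. Named are members with a described role, the 2 called members of each role class with the largest change in each comparison not used for the choice, and those with the smallest difference in the one that was. The alternatives were other offsets, normalisations, filters, priors, the replicate block and leaving out each array. Probe sequences and genome positions were not used here.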

Additional observations from a re-analysis of the deposited data

Results flagged for a closer look

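Limma's interaction contrast sets the drought response of *Stpfld252* against that of WT. In it, 31 of the members chosen by the naming rule above passed the limits (adjusted p under 0.05 and over 2-fold). Values are log2 differences of the responses, *Stpfld252* minus WT. The contrast subtracts the control difference that chose the members, so the values are descriptions and no independent test. With 2 arrays per group, no test for a stray array within a group was possible.

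Among the ligases, the response was higher in *Stpfld252* for the RING probe BF_CSCHXXXX_0015C06.T3M.SCF (2.80), for ZEITLUPE SSBN001B12u.scf (1.48) and for the glutaredoxin-like F-box probe MICRO.13440.C1 (4.27). It was lower in *Stpfld252* for the RING probes MICRO.4807.C4 (-1.36) and bf_suspxxxx_0009g01.t3m.scf (-1.01) and for the F-box probes bf_mxlfxxxx_0011a10.t3m.scf (-1.16, and -0.58 to -0.88 with an offset of 50, median scaling, cyclic loess and the deposited values) and bf_arrayxxx_0017e07.t7m.scf (-1.93). The call of bf_suspxxxx_0009g01.t3m.scf ended without any 1 of 3 arrays, at -0.98 without WT drought replicate 2, -0.94 without *Stpfld252* control replicate 1 and -0.81 without WT control replicate 2.

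Among the proteases, the response was higher in *Stpfld252* for the cysteine proteases bf_mxlfxxxx_0070e03.t3m.scf (4.83) and MICRO.13071.C1 (1.20) and for aspartic proteinase 2 at bf_mxflxxxx_0075c01.t3m.scf (1.65) and MICRO.12692.C1 (1.31). It was lower for the cysteine proteases bf_cswcxxxx_0005b11.t3m.scf (-1.45) and MICRO.16578.C1 (-1.09, and -0.92 without WT control replicate 2), the subtilase bf_arrayxxx_0035d08.t7m.scf (-1.23), and the serine protease category's BF_TUBSXXXX_0021D05_T3M.SCF (-2.24), MICRO.6951.C1 (-1.99), bf_arrayxxx_0058a11.t7m.scf (-1.24) and MICRO.10275.C1 (-1.11). Leucine aminopeptidase MICRO.854.C2 (-3.61), aminopeptidase P MICRO.17840.C1 (-2.13) and the prolylcarboxypeptidase MICRO.5574.C1 (-1.71) were lower too.

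Other differences were those of the autophagy probe MICRO.839.C8 (-4.43), the cystatin MICRO.16230.C1 (-3.37) and the proteinase inhibitor I probes MICRO.3368.C16 (-1.17), bf_cswcxxxx_0007b05.t3m.scf (-1.38) and TBSK02677FH01.t3m.scf (-1.43). The call of MICRO.3368.C16 ended without any 1 of 3 arrays, at -0.86 without *Stpfld252* drought replicate 1, -1.08 without *Stpfld252* control replicate 2 and -0.97 without WT control replicate 1.

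For 5 of the 31, both arrays of at least 1 group failed the test against background. The earlier counts by direction include them, but their values are no measured differences and no direction is read from them here. They are bf_suspxxxx_0051h08.t3m.scf (1.91, no stressed array detected), MICRO.5078.C3 (-1.47, detected in control *Stpfld252* alone), STMEH61TV (-2.56, control WT and stressed *Stpfld252* not detected), MICRO.9571.C2 (-4.06, control WT not detected) and cSTB33F2TH (-1.84, stressed WT not detected). The last of these did not pass with the processed signal, median scaling or cyclic loess, at 0.0555, -0.68 and -1.01. The subtilase MICRO.6325.C1, named above but not by the rule, also passed, at -1.13. It was not detected in stressed WT either, and did not pass with the same settings.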

How the results depend on the processing

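The counts of members kept within 1.5 times their value under all alternatives run. In stressed leaves 28 to 40 members were higher in *Stpfld252* and 14 to 18 were lower, and without 1 array 31 to 33 and 14 to 17. Under the other alternatives the members that fell numbered 27 to 35 in WT and 39 to 51 in *Stpfld252*, and the responses differed downwards for 20 to 29. Of 208 called results of the named members, a normexp offset of 50 ended 33, median scaling 20, the scanner's processed signal 12, the deposited log2 values 10 and cyclic loess 9, mostly at members near the 2-fold limit, and 1 turned its direction: the difference of responses of the subtilase cSTB33F2TH was 0.0555 with the processed signal, and its stressed WT arrays were not well above background. Median scaling moved the median drought change of all probes in *Stpfld252* from 0.05 to 0.20. Leaving out 1 array ended 3 to 7 of the 208. A fit with the replicate number as a block ended none of them and gave 33 higher and 16 lower members in stressed leaves. The deviations of same-numbered arrays correlated only weakly, at -0.148 to 0.161. With 2 arrays per group, these values cannot decide whether the numbers pair the arrays. In simulated data with the measured spread and 36250 probes, 91 of 100 probes changed 2.5-fold and 97 of 100 changed 4-fold were called between the stressed lines, and 72 and 92 in the difference of responses, so changes near 2-fold can be missed.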
